A study of Mus musculus with 2 samples.

Results

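Blood endothelial cells, the cells that line arteries, capillaries and veins, were taken as the cells that the authors annotated as endothelial and that held a UMI (a counted molecule) of fewer than 2 of the lymphatic genes Lyve1, Prox1, Mmrn1 and Reln. The rule selected 692 of the 14097 cells and 692 of the 849 annotated endothelial cells. The CIN_high library gave 468 of them and the CIN_low library 224. Because the authors' cell types and the rule were both drawn from measured expression, the markers below describe the selection and do not test it.

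The tissue was distal colon adenoma of mice aged 25 weeks with the strain Apcmin;LSL-mTERT, shared by both groups of the study, G0+T and G4+T, which had 1 droplet library each. The Apcmin allele truncates Apc, a brake on Wnt signalling, so that adenomas form in the intestine, and LSL denotes a stop cassette that Cre removes, here in front of mouse telomerase reverse transcriptase; the labels name no Cre driver. The deposited annotation gives 1 class, CIN_high or CIN_low, to all cells of a library, and the cell names conflict with the sample titles over which library is G0+T. The libraries are therefore called by their class, and no cell is credited to either group. How many mice or adenomas went into a library is not given, so a difference between the libraries cannot be told apart from one between mice, tissue pieces or preparations. No p-value is given for that reason, and every interval is an exact 95% interval that covers counting error only.

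A gene's level is its summed UMIs per 10000 summed UMIs of the cells in question, and a difference of at least 1.5-fold is called higher or lower. The blood endothelial cells held a median of 3959 UMIs in the CIN_high and 4618 in the CIN_low library, with a range of 807 to 32543 over both. Mitochondrial transcripts took a median of 6.66% and 6.91% of their UMIs. Tert gave 0 UMIs in the blood endothelial cells of either library, which does not exclude a low level. Xist, transcribed in female cells, gave 2587 and 2219 UMIs. Of the 11 barcodes found under both libraries, 1 belonged to a blood endothelial cell.

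Endothelium forms one lining but differs by vessel. Arterial cells carry gap junctions and Notch signals, capillary cells exchange nutrients and take up fatty acids, and postcapillary venules present selectins and adhesion molecules that let leukocytes leave the blood. In growing tissue, tip cells lead new sprouts and lay down a basement membrane rich in type IV collagen.

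The lymphatic rule separated cells that differed in many other genes. Of the CIN_high endothelial cells, 442 held none of the 4 lymphatic genes, 26 held 1, 6 held 2, 26 held 3 and 102 held all 4; the CIN_low numbers were 188, 36, 2, 2 and 19. Just inside the line, the CIN_high cells with 1 lymphatic gene had 16.5 UMIs per 10000 of Flt1, a VEGF receptor, and 13.5 of Plvap, which forms the diaphragms of vessel pores. Just outside it, the 6 CIN_high cells with 2 lymphatic genes had 7.82 and 11.7, while the 2 CIN_low cells with 2 had 37.5 and 10.1. The 26 CIN_high cells with 3 lymphatic genes had 0 of both. Ccl21a, the chemokine of lymphatic vessels, was at 0 in cells with none or 1 of the genes, at 11 in the 6 CIN_high cells with 2 and 0 in the 2 CIN_low cells with 2, and at 75.4 in the CIN_high cells with 3.

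The markers named for the cells were present in both libraries. Pecam1, the adhesion protein CD31, had a level of 15.0 in CIN_high cells and 15.6 in CIN_low cells (UMIs per 10000), with a UMI in 93.6% and 92.9% of them. Cdh5, the cadherin of endothelial junctions, was at 7.40 and 9.46. Kdr, the main VEGF receptor, was at 11.4 and 7.27. Sox17, a transcription factor of arterial endothelium, was at 1.55 and 1.33 and gave a UMI in 37.8% and 33.5% of the cells. In T and NK cells, which lack these genes apart from Pecam1, the level of Cdh5, Kdr and Sox17 was at most 0.05, so the endothelial values stand far above the RNA found free in the droplets. Of the pan-endothelial list, 27 of 27 genes were measured (at least 50 UMIs over both libraries and a UMI in 5% of the cells of 1 library), 2 were higher in CIN_high (Kdr and Cldn5) and 0 were lower, with a median log2 ratio of 0.01.

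**Figure D1:**
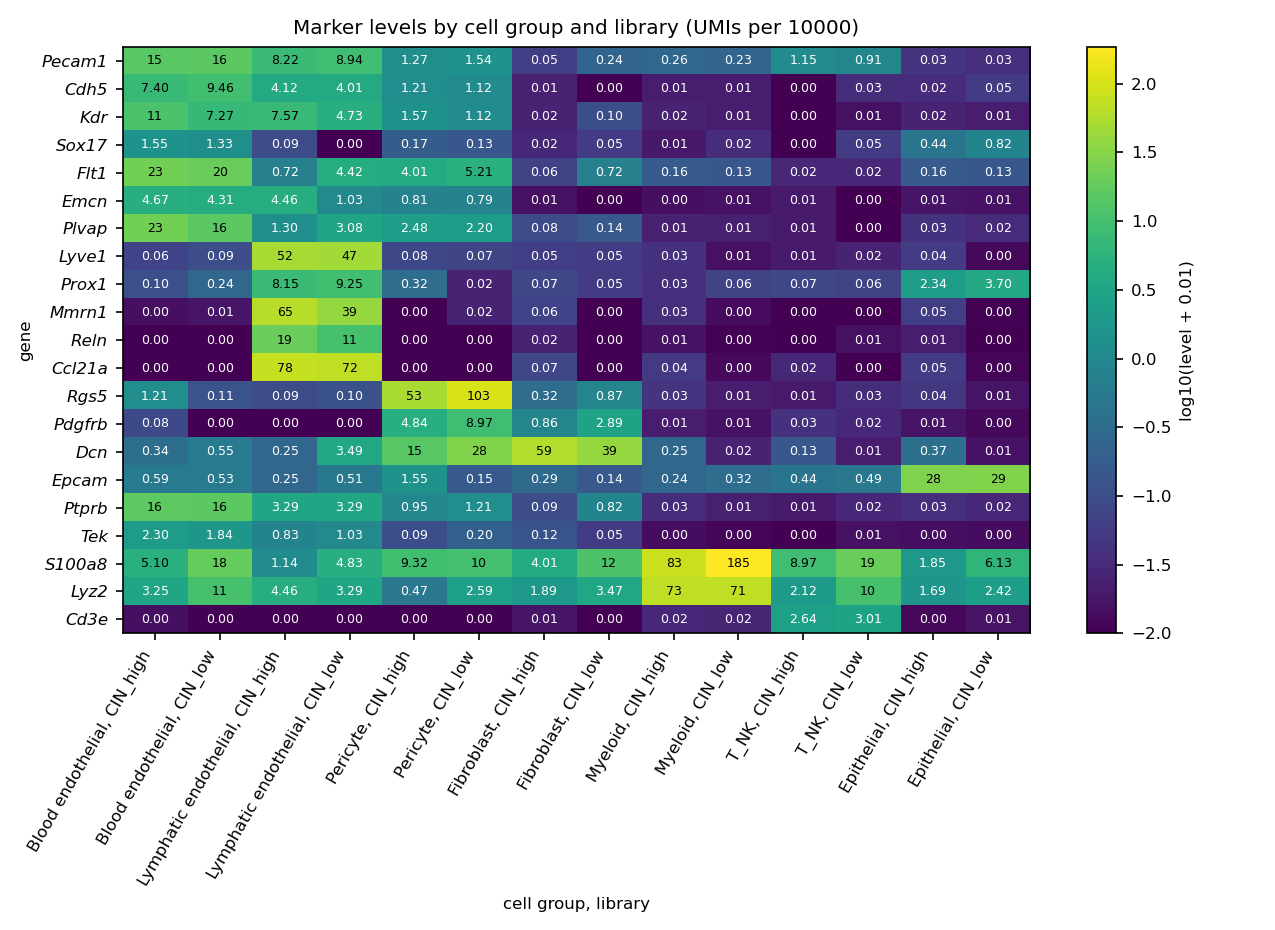
Levels (UMIs per 10000, printed in each field and coloured on a log10 scale after adding 0.01) of 21 marker genes, in rows, in 7 cell groups of each library, in columns. Pecam1, Cdh5, Kdr, Flt1 and Plvap are high in the blood endothelial columns of both libraries, Lyve1, Mmrn1, Reln and Ccl21a in the lymphatic columns alone, and S100a8 spreads from the myeloid columns into all others.

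Markers of other cell types were not at 0 and differed between the libraries. The 6 neutrophil markers had a summed level of 14.6 in the CIN_high cells and 52.5 in the CIN_low cells; 21.2% and 89.3% of the cells held 2 or more of them. S100a8, a calprotectin subunit, was at 5.10 and 18.2 in blood endothelial cells and at 8.97 and 19.4 in T and NK cells. The 7 macrophage and monocyte markers summed to 5.51 and 19.0. Pericyte markers, 8 genes, summed to 1.86 and 0.28, fibroblast markers, 6 genes, to 0.64 and 0.58, and epithelial markers, 6 genes, to 2.57 and 2.52. The fibroblast gene Dcn was at 0.34 and 0.55. T and NK markers were near 0, at 0.02 in each library. Hemoglobin gave 1117 UMIs in 2 CIN_high cells, 892 of them in 1 cell, and 0 in CIN_low cells. Genes of neutrophils and macrophages are therefore given below with their levels in T and NK cells, and the part that free RNA or joined cells play in each difference was not tested unless a value is given.

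Blood endothelial cells were set against the other annotated types with at least 50 cells in a library. Fibroblasts in CIN_low (21 cells) and B cells in CIN_high (40 cells) fell below that number and were not compared there. The genes with the largest ratio in both libraries were Sema3g, a secreted arterial semaphorin, Gja5, an arterial connexin, Ccm2l, She, Sele, Syt15, Fgd5, Flt4, Ptprb, Sox7, Ace, Stmn2, Mmrn2, Selp, Rbp7, Cd36, Gata2, Tal1, Hspa12b and Pecam1. Sema3g was at 1.60 in CIN_high and 2.0 in CIN_low blood endothelial cells. In CIN_high this was 28.3 times the level of pericytes, the highest other type, which was only 0.057. In CIN_low the ratio of 55.4 is to 0.036, the floor of 3 UMIs given to a type with 0 UMIs, and not to a pericyte level. Ptprb, the endothelial phosphatase VE-PTP, was at 16.3 and 15.6, or 17.3 and 12.9 times that of pericytes. Ace, angiotensin-converting enzyme, was at 3.76 and 2.48, at 22.1 and 12.3 times the pericyte level. Flt4, a VEGF receptor best known from lymphatic vessels, leads against the annotated types only, since lymphatic cells belong to the endothelial type: it was at 0.49 and 0.68 in blood endothelial but at 10.5 and 6.27 in lymphatic endothelial cells. Pericytes were the highest other type for 16 of these 20 genes in each library; they were themselves at 4.01 and 5.21 UMIs per 10000 of Flt1. These ratios restate the annotation and are a description only.

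Against lymphatic endothelial cells, 134 CIN_high and 23 CIN_low cells, blood endothelial cells were set apart by Ly6c1, Sparcl1, Jam2, Lrrc8c, Scarb1, Ly6a, Vwf, Entpd1, Adamts9 and Mecom. Ly6c1 was at 15.1 in CIN_high blood and 0.25 in CIN_high lymphatic cells, and at 9.69 against 0.10 in the CIN_low library. Vwf, von Willebrand factor, was at 9.24 against 0.40 and at 7.25 against 0.51. On the lymphatic side, besides 3 of the 4 genes of the rule, stood Ccl21a, Pard6g, Slc45a3, Nts, Sh3gl3, Sema3a and Thy1; Sema3a, a repelling guidance cue, was at 5.29 and 7.30 in lymphatic and at 0.03 and 0.05 in blood endothelial cells. Prox1, the lymphatic master regulator, was at 0.10 and 0.24 in blood endothelial cells and at 8.15 and 9.25 in lymphatic cells.

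The share of blood endothelial cells was 7.56% (6.92% to 8.25%) of all CIN_high cells but 2.83% (2.48% to 3.22%) of all CIN_low cells. With immune cells left out of the count, they made up 15.7% (14.4% to 17.0%) and 10.9% (9.59% to 12.3%). They were 77.7% of the CIN_high endothelial cells (74.2% to 81.0%) and 90.7% of those of the CIN_low library (86.4% to 94.0%), the rest being lymphatic. The share was higher in the CIN_high library on these 2 denominators, beyond counting error. The non-immune cells differed in make-up. Epithelial cells were 44.1% of them in CIN_high and 84.0% in CIN_low, and fibroblasts 32.4% and 1.02%. Blood endothelial cells were fewer than fibroblasts in CIN_high (468 and 966) but outnumbered them in CIN_low (224 and 21), so the direction depends on the cells counted. Shares depend on how each tissue piece was cut and dissociated.

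The comparison of the CIN_high with the CIN_low library asked how the vessel lining of the adenomas differed between the classes. Of 7161 genes measured in blood endothelial cells, 431 (6.02%) were higher in CIN_high by at least 1.5-fold and 861 (12%) were lower. The median log2 ratio over all of them was -0.07, and relative to that median 549 genes were higher and 701 lower. The shares of 6.02% and 12% are the background for every list count over all blood endothelial cells. Of the capillary genes 9 of 15 were higher in the CIN_high cells, both chains of type IV collagen were lower, and of 13 measured Notch genes 0 lay beyond 1.5-fold.

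Of the 15 capillary genes, all measured, 9 were higher and 1 was lower, with a median log2 ratio of 0.93; the background over all measured genes was 6.02% higher and 12% lower. Cd36, the fatty acid and thrombospondin receptor, was at 16.6 in CIN_high and 2.02 in CIN_low cells, with a UMI in 54.7% and 18.8% of the cells. It was 8.20-fold higher (7.24 to 9.33). Fabp4, a fatty acid binding protein, was at 81.7 and 24.7, 3.31-fold higher (3.19 to 3.44), with a UMI in 90.6% and 73.7% of the cells. Gpihbp1, which anchors lipoprotein lipase on the capillary wall, was at 5.26 and 2.09, 2.52-fold higher (2.20 to 2.88). The other measured genes of this list that were higher were Car4, a carbonic anhydrase of the capillary surface (1.35 and 0.13), Btnl9 (1.37 and 0.32), Rgcc (6.37 and 2.1), Cd300lg (3.20 and 1.49), Fabp5 (2.98 and 1.57) and Kdr. Aplnr, the apelin receptor, was lower in CIN_high, at 0.41 against 1.11, 2.69-fold (2.05 to 3.55). In T and NK cells, Rgcc was at 1.23 and 1.47, Cd36, Fabp4, Gpihbp1, Car4 and Btnl9 lay at 0.10 or below, whereas Fabp5 was at 3.89 and 4.05 there, above its endothelial level. Other cell types showed some of these differences at lower levels. Pericytes had 1.53 of Cd36 in CIN_high and 0 in CIN_low, 0.87 and 0.03 of Rbp7, and 7.47 and 4.18 of Fabp4. In epithelial cells Cd36 was at 0.026 and 0.0037 and Car4 at 0.066 and 0.0012. What RNA from endothelial droplets adds to those values was not tested.

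Fatty acid handling, a list of 16 genes that shares 4 with the capillary list, had 10 measured members, with a median log2 ratio of 0.67. Of these, 5 were higher and 0 lower, beside 6.02% and 12% of all measured genes. Besides Cd36, Fabp4, Fabp5 and Gpihbp1, Tcf15 was higher, at 0.69 against 0.18, 3.94-fold (2.52 to 6.41); with Meox2, also on the list but not measured, it is known to drive fatty acid uptake in capillaries. Pparg, the nuclear receptor that controls Cd36 and Fabp4 in fat cells, was at 0.30 and 0.23, a ratio of 1.29 with an interval from 0.82 to 2.07. Lpl, lipoprotein lipase itself, gave 15 and 12 UMIs and was not measured. Acsl5, Lipe and Pnpla2, of triglyceride and acyl-CoA metabolism, and Meox1 were measured and lay within 1.5-fold. In pericytes, 4 of 6 measured genes of this list were higher and 1 lower, with a median log2 ratio of 1.05. Over all 3800 genes measured in pericytes, 411 were higher and 536 lower.

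The naming rule took genes highest in blood endothelial cells in the library where the gene was higher. Lymphatic endothelial cells and types with fewer than 50 cells in that library were not compared. The 12 genes highest in CIN_high by this rule were Cyp26b1, Rbp7, Car4, Cd36, Cytl1, Jam3, Pcp4l1, Btnl9, Tcf15, Fabp4, Rsad2 and Rgcc. Cyp26b1, which degrades retinoic acid, was at 1.30 and 0.11, 11.4-fold higher (6.79 to 20.7), and gave a UMI in 26.1% and 4.46% of the cells. Rbp7, an intracellular retinol binding protein of the Fabp family, was at 9.51 and 0.88, 10.9-fold higher (8.99 to 13.2). Jam3, a junctional adhesion molecule, was at 0.68 and 0.11, and Cytl1, a secreted cytokine-like protein, at 1.22 and 0.19. Cyp26b1, Rbp7 and Cytl1 were at 0 UMIs in the T and NK cells of both libraries. Another 6 genes were higher without being led by these cells: Gucy1a1, Fmo2, Akap12, Cxcl12, Cd24a and Ccnd2. Cxcl12, the ligand of Cxcr4, was at 11 and 3.46, 3.18-fold higher (2.87 to 3.52). It was higher in CIN_high pericytes too, at 3.56 against 0.49, and in fibroblasts, at 11.2 against 2.85. The CIN_low fibroblast value came from only 21 cells, fewer than the 50 asked of a type elsewhere. Gucy1a1 and Akap12 were highest in pericytes, whose marker Rgs5 was at 1.21 and 0.11 in the same blood endothelial cells; the part of joined pericytes in these values was not tested.

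The promoters of Cd36 and Rbp7 are shown because their differences were large and rested on many UMIs, 3480 and 265 of Cd36 and 1999 and 115 of Rbp7. Each window runs from 250 bases before to 50 after the start of the RefSeq gene model, on GRCm38.p6. The Cd36 window, chr5:17835847-17836146 on the minus strand, lies within the gene as GENCODE annotates it (chr5:17781690-17888801), at an inner start site. Capitals mark the only match, on either strand, to the nuclear receptor motif AGGTCA, which 16.3% of 32851 RefSeq promoter windows hold. The Rbp7 window is chr4:149454919-149455218 on the minus strand. Its capitals mark the only match to the CACC box CCACACCC, present in 3.56% of the windows.
Cd36: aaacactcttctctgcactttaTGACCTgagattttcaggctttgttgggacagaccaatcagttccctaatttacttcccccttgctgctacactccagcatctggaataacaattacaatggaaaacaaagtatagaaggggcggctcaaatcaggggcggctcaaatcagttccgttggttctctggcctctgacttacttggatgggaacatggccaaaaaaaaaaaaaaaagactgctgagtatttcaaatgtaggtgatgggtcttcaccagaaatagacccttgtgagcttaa
Rbp7: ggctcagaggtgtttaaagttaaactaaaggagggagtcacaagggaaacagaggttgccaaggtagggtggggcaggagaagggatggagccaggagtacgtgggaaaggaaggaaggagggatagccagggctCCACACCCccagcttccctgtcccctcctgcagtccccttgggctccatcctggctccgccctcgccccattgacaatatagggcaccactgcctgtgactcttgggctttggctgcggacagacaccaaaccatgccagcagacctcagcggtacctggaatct
The motifs, too, were chosen after the values were seen. A group of 12 genes, the 9 higher genes of the capillary list with Rbp7, Cyp26b1 and Tcf15, was chosen after the values were seen, and 7 of them matched the RefSeq table; AGGTCA was found in 1 of them (Cd36) and CCACACCC in 1 (Rbp7). The matches describe letters and show no binding.

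Genes of sprouting vessels went the other way. Of 18 tip and angiogenic genes, 16 were measured, with a median log2 ratio of -0.52. Of these, 1 was higher and 7 were lower, beside 6.02% and 12% of all measured genes. Col4a1, a type IV collagen chain, was at 18.4 in CIN_high and 28.2 in CIN_low cells, 1.53-fold lower (1.47 to 1.60), with a UMI in 75.9% and 92.9% of the cells. Col4a2, its partner chain, was at 9.68 and 15.8, 1.63-fold lower (1.53 to 1.73). Apln, the ligand of Aplnr and a tip cell marker, was at 0.16 and 0.37 from 33 and 49 UMIs, and Cxcr4 at 0.29 and 0.62. Insr, the insulin receptor, was at 4.15 and 6.70, 1.62-fold lower (1.47 to 1.78). Kcne3, the other lower gene besides Aplnr, had an interval that reached 1, at 1.56-fold (0.98 to 2.48). Esm1, endocan, a gene that VEGF induces in tip cells, was higher instead, at 0.88 and 0.56, 1.58-fold (1.20 to 2.1). Angpt2, angiopoietin 2, was at 0.36 and 0.43, within its counting error. In T and NK cells Cxcr4 was at 1.34 and 1.85 and Insr at 0.24 and 0.21, and the other genes of this paragraph lay at 0.05 or below.

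Among the basement membrane and matrix genes, 23 of 25 were measured, with a median log2 ratio of -0.33. Of them 1 was higher and 5 were lower, beside 6.02% and 12% of all measured genes. Col4a1 and Col4a2 are counted among these 5 and also among the lower tip and angiogenic genes above. Col18a1, the source of endostatin, was at 1.27 and 2.84, 2.25-fold lower (1.91 to 2.64), with a UMI in 21.4% and 50.9% of the cells. Mmp14, a membrane-bound metalloproteinase of sprouting cells, was at 0.67 and 1.48, 2.20-fold lower (1.77 to 2.76), and Col15a1 at 3.37 and 5.39. Sparc, a collagen-binding secreted protein, was at 13.5 and 20.2, just under the 1.5-fold line. Lamb2, a laminin beta chain, was the higher gene, at 1.10 and 0.54, 2.03-fold (1.55 to 2.69).

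**Figure D2:**
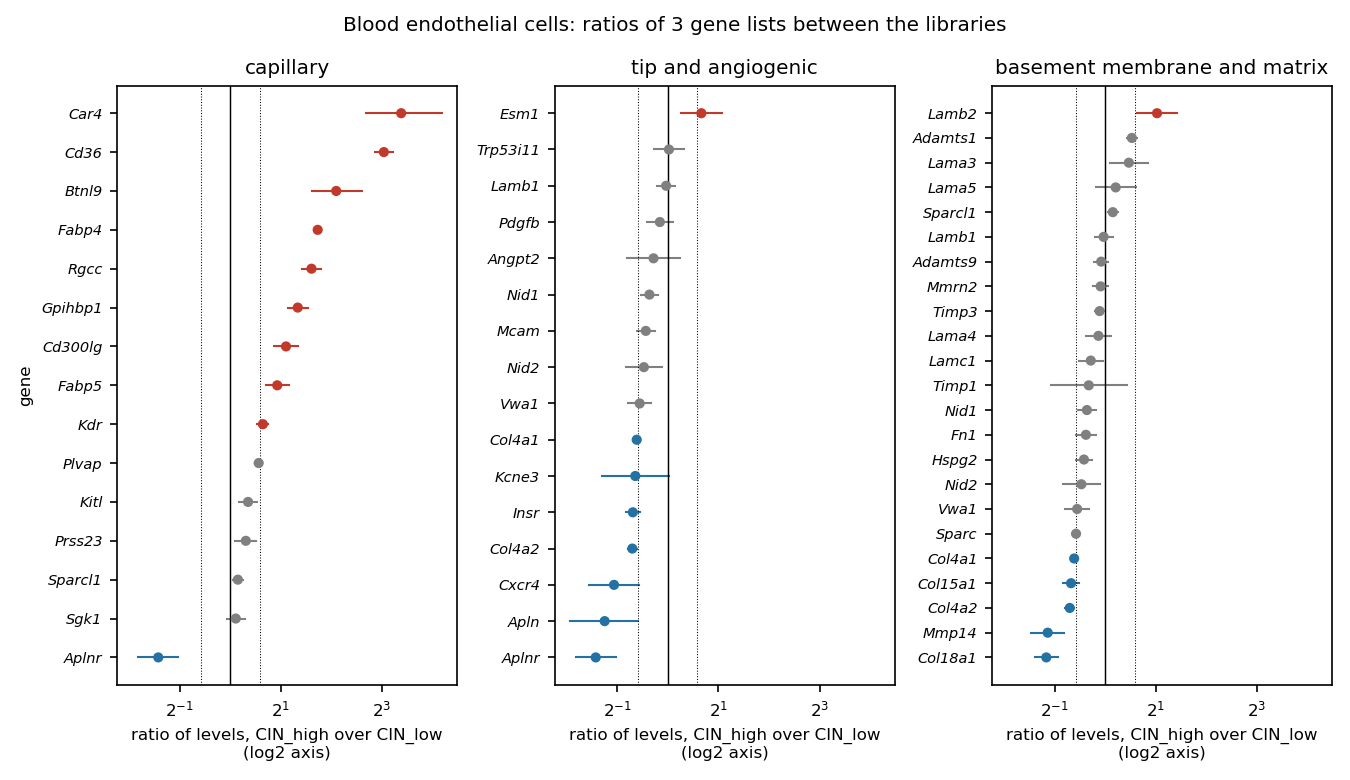
Ratio of the level in CIN_high to that in CIN_low blood endothelial cells (log2 axis) for the measured genes of 3 lists; bars are exact 95% counting intervals, dotted lines mark 1.5-fold each way, red points are higher and blue points lower past those lines. Car4 and Cd36 stand highest among the capillary genes, where Aplnr alone is past the lower line. Of the tip and angiogenic genes 7 of 16 are past it, and of the matrix genes 5 of 23, with Col4a1 and Col4a2 in both counts.

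Col4a1 and Col4a2 lie head to head on chromosome 8 (chr8:11198423-11312826 on the minus and chr8:11312805-11449287 on the plus strand, GENCODE on GRCm38), and their RefSeq promoter windows, chr8:11312777-11313076 and chr8:11312555-11312854, overlap by 78 bases. They are shown because both chains were lower together in CIN_high. Capitals mark matches to the NF-kB consensus, searched on both strands and found in 8.46% of the windows: 1 in the Col4a2 window and 0 in the Col4a1 window.
Col4a1: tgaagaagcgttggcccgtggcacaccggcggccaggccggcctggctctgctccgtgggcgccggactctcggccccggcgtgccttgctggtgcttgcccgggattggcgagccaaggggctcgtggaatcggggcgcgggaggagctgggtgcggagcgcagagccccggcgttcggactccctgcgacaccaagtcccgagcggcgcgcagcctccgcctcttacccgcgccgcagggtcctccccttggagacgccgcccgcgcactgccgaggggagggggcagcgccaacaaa
Col4a2: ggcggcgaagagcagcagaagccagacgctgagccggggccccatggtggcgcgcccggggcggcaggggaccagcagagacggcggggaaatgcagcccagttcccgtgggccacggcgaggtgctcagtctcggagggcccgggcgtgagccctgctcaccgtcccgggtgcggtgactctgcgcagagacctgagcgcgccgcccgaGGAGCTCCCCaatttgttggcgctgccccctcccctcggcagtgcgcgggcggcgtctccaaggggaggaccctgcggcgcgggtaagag
The match lies outside the shared 78 bases. No match says only that these letters are absent from the window.

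The genes that were lower in CIN_high by the naming rule, among those highest in blood endothelial cells in the CIN_low library, included Shroom2, Diaph2, Ccdc9b, Serpina3f, Csf3, Aplnr, Dancr, Ankrd28, Dusp2 and Ubd. Lymphatic endothelial cells and the 21 CIN_low fibroblasts were not compared. Dusp2 was at 1.00 and 2.47 and in T and NK cells at 1.22 and 2.33, so that in the CIN_high library T and NK cells were higher. Ubd, the ubiquitin-like protein FAT10 that inflammatory cytokines induce, was at 1.46 and 3.58, 2.46-fold lower (2.12 to 2.85). Diaph2 was also lower in pericytes, T and NK, myeloid and epithelial cells of the CIN_high library, where its ratio lay between 0.16 and 0.66. Ptn, pleiotrophin, a growth factor highest in epithelial cells, headed the genes not led by endothelium, at 0.07 and 1.13, 16.9-fold lower (9.78 to 31.7), from 14 and 148 UMIs. The ratio of Ptn, CIN_high over CIN_low, was also low in T and NK (0.10), myeloid (0.27) and epithelial cells (0.52), but 9.76 in pericytes. What free RNA adds to the Ptn values was not tested. The other 5 genes not led by endothelium, Cxcl3, C1qc, Ifitm6, G0s2 and Cytip, were highest in myeloid or in T and NK cells.

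Coagulation and fibrinolysis genes had 15 of 22 members measured, with a median log2 ratio of -0.04. Of these, 1 was higher and 6 were lower, beside 6.02% and 12% of all measured genes. Entpd1, the ectonucleotidase CD39, was at 2.81 and 4.90, 1.74-fold lower (1.56 to 1.95), and Nt5e, CD73, which completes the step from ATP to adenosine, at 0.39 and 0.78. Tfpi and Tfpi2 were lower as well, and so was Plaur, at 0.87 and 1.36, beside 0.46 and 0.86 in T and NK and 4.14 and 7.79 in myeloid cells. Thbd, thrombomodulin, at 2.53 and 2.03, and Plat, tissue plasminogen activator, at 1.81 and 1.21, stayed under 1.5-fold, and Serpine2 was the higher gene.

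Chemokine genes were lower in CIN_high for the most part. Of 19, 11 were measured, with a median log2 ratio of -1.12, and 2 were higher and 8 lower, beside 6.02% and 12% of all measured genes. Without the cells that Scrublet called as doublets, 2 of 7 measured genes were higher and 3 lower, with a median of -0.28. Cxcl2, a neutrophil attractant, was at 2.09 and 9.80, 4.68-fold lower (4.20 to 5.23), but T and NK cells had 2.63 and 8.21 of it and myeloid cells 31.7 and 78.7. In T and NK cells, 7 of 9 measured chemokines were lower too, with 8.82% of all genes measured there lower and 4.27% higher. Cxcl1, another neutrophil attractant, was at 1.74 and 3.09, 1.78-fold lower (1.54 to 2.06), with 0.05 and 0.11 in T and NK cells. Cxcl9, which interferon gamma induces, was at 2.62 and 4.48, against 0.44 and 0.76. The 2 higher genes were Cxcl12 and Cx3cl1, fractalkine, at 0.38 and 0.12.

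The NF-kB list, 26 of 30 genes measured, had 1 higher and 11 lower genes and a median log2 ratio of -0.29. Over all measured genes 6.02% were higher and 12% lower. Cxcl1, Cxcl2 and Cxcl3 are among these 11 and were also counted among the lower chemokines. Il1b was at 2.39 and 9.84 in blood endothelial and 2.69 and 8.89 in T and NK cells. Il1a was at 0.09 and 0.54 against 0.25 and 0.48. Csf3, the granulocyte growth factor, was at 0.42 and 1.13, 2.69-fold lower (2.06 to 3.55), and at 0.00 and 0.02 in T and NK cells. Nfkbia, the feedback inhibitor of NF-kB, was at 11.5 and 11.6 (ratio 0.99, 0.93 to 1.06), and Il6 at 1.61 and 1.72 (0.94, 0.79 to 1.11). The list thus held genes at the level of other droplets, such as Il1b, and genes well above it, such as Csf3 and Nfkbia.

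To set a level for free RNA, the myeloid level of each gene was multiplied by the ratio of neutrophil markers in blood endothelial to those in myeloid cells, which was 6.68% in CIN_high and 10.5% in CIN_low. Of the chemokines, 5 genes lay at 2 or more times this level in both libraries, 2 of them higher and 2 lower, with a median log2 ratio of -0.20; of the NF-kB genes 22 did, 1 higher and 7 lower, with a median of -0.18. Ccl3, Ccl4, Ccl5, Cxcl2, Cxcl3, Cxcl16, Il1a and Il1b did not.

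**Figure D3:**
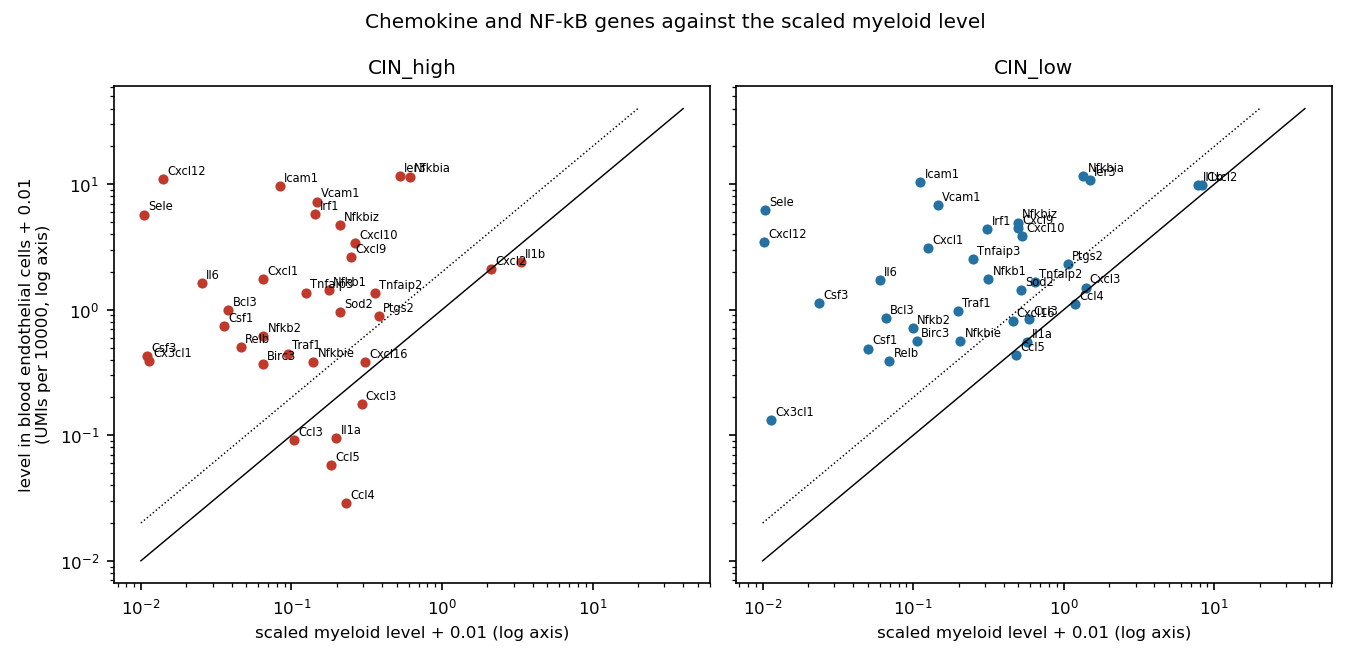
Level in blood endothelial cells (UMIs per 10000) against the scaled myeloid level for measured chemokine and NF-kB genes, CIN_high left and CIN_low right, both axes logarithmic after adding 0.01; the solid line marks equal values and the dotted line 2 times as much. Cxcl2, Il1b, Ccl3 and Cxcl3 lie under the dotted line in both libraries, and Sele, Icam1, Vcam1, Csf3 and Cxcl12 far above it.

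The leukocyte adhesion list, 16 of 17 genes measured, had 1 higher and 1 lower gene (Jam3 and Alcam) and a median log2 ratio of 0.07. Over all measured genes 6.02% were higher and 12% lower. Sele, E-selectin, was at 5.72 and 6.22 (ratio 0.92, 0.84 to 1.005) and Selp, P-selectin, at 10.7 and 14.0 (0.77, 0.72 to 0.82). Icam1 was at 9.72 and 10.4, Vcam1 at 7.27 and 6.77, and Ackr1, the chemokine-binding receptor of venules, at 2.72 and 2.51. Madcam1, the ligand of gut-homing leukocytes, was at 2.05 and 1.96. All 6 were within 1.5-fold. Selp was the only one of the 6 whose counting interval lay clear of a ratio of 1.

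Vessel identity was described by defining genes: a cell was called arterial-marked, venous-marked, capillary-marked or tip-marked if it held a UMI of at least 2 of the genes of that set. Arterial-marked cells (Gja5, Gja4, Hey1, Sema3g, Bmx, Efnb2) made up 26.1% of CIN_high (22.2% to 30.3%) and 28.1% of CIN_low cells (22.3% to 34.5%). Venous-marked cells (Ackr1, Selp, Nr2f2, Ephb4) made up 33.8% (29.5% to 38.2%) and 38.8% (32.4% to 45.6%). Capillary-marked cells (Rgcc, Gpihbp1, Cd300lg, Car4) made up 45.3% (40.7% to 49.9%) and 34.8% (28.6% to 41.4%). Tip-marked cells (Apln, Esm1, Angpt2, Pgf, Cxcr4) made up 4.91% (3.14% to 7.28%) and 9.38% (5.90% to 14.0%), and 9.62% and 19.6% of the cells had no set. After every cell was thinned to 3000 UMIs, which left out 155 and 73 shallower cells, the capillary shares were 43.5% (37.9% to 49.1%) and 27.2% (20.2% to 35.0%), the arterial 24.9% and 27.2%, and the venous 32.6% and 39.1%. The capillary share was thus the one that differed most in percentage points, and its defining genes were themselves higher in CIN_high, so the share and the level cannot be told apart. With 1 defining gene in place of 2, the capillary shares were 58.8% and 59.4%, so the difference rests on the rule of 2 genes, and the venous shares were 53.2% and 64.7%.

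**Figure D4:**
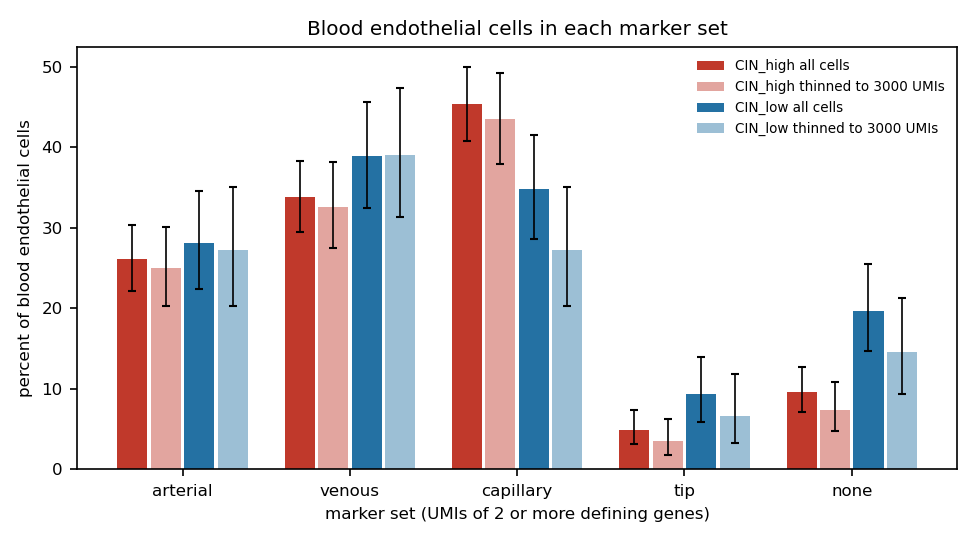
Percent of blood endothelial cells with UMIs of at least 2 defining genes of each marker set, by library, for all cells (dark) and for cells thinned to 3000 UMIs (pale); error bars are exact 95% binomial intervals and a cell can be in several sets. The capillary bars are 45.3% and 34.8% before thinning, where their intervals overlap slightly, and 43.5% and 27.2% after it, where they do not. The arterial and venous intervals overlap between the libraries before and after thinning.

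The sets overlapped unevenly. In CIN_high cells, 11 were both arterial-marked and venous-marked, where the product of the shares gives 41.2, and 17 were both venous-marked and capillary-marked, where it gives 71.6. Arterial and capillary markers met in 50 cells, near the product of 55.3. In the CIN_low library, 10, 18 and 31 cells held those pairs, with products of 24.5, 30.3 and 21.9. Venous markers thus met the other sets in fewer cells than the product in both libraries.

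Genes outside the defining sets followed the same division. The analysis used cells of 1 set alone: 65 and 22 arterial-marked, 136 and 63 venous-marked, and 138 and 31 capillary-marked cells in CIN_high and CIN_low. The 20 genes most raised in each set were chosen in the CIN_high library and then read in the CIN_low library. Of the arterial genes, 19 of 20 were again highest in arterial-marked cells, where 43.9% of all eligible genes were. Of the venous genes, 20 of 20 were highest in venous-marked cells, against 36.3% of all, and of the capillary genes 11 of 20 in capillary-marked cells, against 36% of all.

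In arterial-marked cells stood Fbln5, an elastic fibre protein, at 19.4 and 18.9 UMIs per 10000, against 1.85 and 1.76 in venous-marked cells. Jag1, a Notch ligand, was at 5.56 and 8.12, Vegfc, the lymphatic growth factor, at 1.73 and 1.75, and Ace at 11.6 and 11.2. Arterial genes as a list, 18 of 20 measured over all blood endothelial cells, had 3 higher (Cxcl12, Edn1 and Mgp) and 0 lower, with a median log2 ratio of 0.10. Notch genes, 13 of 18 measured, had 0 beyond 1.5-fold either way and a median of 0.03, although 6.02% and 12% of all genes lay beyond it; Dll4 was at 1.78 and 1.58 and Notch1 at 3.17 and 3.02. Cldn5, the tight junction claudin that was higher in CIN_high overall (1.13 and 0.54), was at 4.39 in arterial-marked CIN_high cells and 0 in arterial-marked CIN_low cells, the 1 arterial gene of the 20 that did not return.

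In venous-marked cells stood Sele, Madcam1, Adgrg6, Ehd3, Lrg1, Csf3 and Cxcl10. Sele was at 16.8 and 15.7 in venous-marked, 0.14 and 0.28 in arterial-marked and 0 in capillary-marked cells of both libraries. Icam1 was at 24.3 and 21.7 in venous-marked cells, 4.01 and 6.46 in arterial-marked and 1.70 and 1.00 in capillary-marked cells. Vcam1 was at 20.5 and 15.5 in venous-marked cells, and Madcam1 at 6.29 and 5.19. The adhesion molecules therefore lay in the same set in both libraries at a similar level. Csf3 lay there too, at 1.24 and 3.15, 2.55-fold lower (1.91 to 3.42). The venous list over all blood endothelial cells, 13 of 13 measured, had 1 higher (Cpe) and 1 lower gene (Ackr3) and a median log2 ratio of -0.09. Over all measured genes 6.02% were higher and 12% lower.

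The promoters of Madcam1 and Cxcl10 are shown as members of this venous group with more than 1 match to the NF-kB consensus, in capitals. The Madcam1 window, chr10:79664309-79664608 on the plus strand, holds 2 matches. The Cxcl10 window, chr5:92348840-92349139 on the minus strand, holds 3, of which 2 overlap.
Madcam1: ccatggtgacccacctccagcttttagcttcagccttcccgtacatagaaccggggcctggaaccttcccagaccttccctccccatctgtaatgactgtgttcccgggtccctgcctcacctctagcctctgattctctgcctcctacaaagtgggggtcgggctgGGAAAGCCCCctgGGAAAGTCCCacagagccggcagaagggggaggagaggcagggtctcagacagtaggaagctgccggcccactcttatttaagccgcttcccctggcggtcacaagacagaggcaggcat
Cxcl10: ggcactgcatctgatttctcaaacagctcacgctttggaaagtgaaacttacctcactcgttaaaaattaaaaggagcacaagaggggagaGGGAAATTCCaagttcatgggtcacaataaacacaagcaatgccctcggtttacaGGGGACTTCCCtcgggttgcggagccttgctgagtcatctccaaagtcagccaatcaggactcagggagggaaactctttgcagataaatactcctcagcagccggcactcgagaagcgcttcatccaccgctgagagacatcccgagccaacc
Of 10 genes chosen from the venous-marked cells after their values were seen, 8 matched the RefSeq table and 3 held the consensus (Cxcl1, Cxcl10 and Madcam1). Of the 7 matched capillary genes 4 held it as well (Car4, Cyp26b1, Kdr and Rgcc). The AP-1 motif TGANTCA, in 7.81% of all windows, was found in 3 of the 8 (Cxcl10, Sele and Selp) and in 0 of the 7.

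Genes highest in capillary-marked cells of both libraries included Thrsp, Scgb3a1, Trp53i11, Ednrb, Rbp7 and Sparcl1. Among the capillary genes of the CIN_high library that did not return in CIN_low were Btnl9, at 0.55 in arterial-marked and 0.25 in capillary-marked CIN_low cells, Tcf15, at 0.18 and 0.084, and Rsad2, at 0.83 and 0.25. Ednrb, an endothelin receptor, was at 4.20 and 2.68 there, against 0.41 and 0.65 in arterial-marked cells. Cd36 was at 33.4 and 3.51 in capillary-marked cells, 9.50-fold higher in CIN_high (7.0 to 13.2). It was at 5.84 and 2.21 in arterial-marked and 0.78 and 0.14 in venous-marked cells. Fabp4 was at 158 and 49.0 in capillary-marked cells, 3.21-fold higher (2.95 to 3.50), at 43.9 and 31.8 in arterial-marked, and at 15.6 and 6.05 in venous-marked cells. Rbp7 was at 20.2 and 2.76 in capillary-marked cells, 7.33-fold higher (5.19 to 10.7). Cxcl12 was at 20.6 and 6.78 in capillary-marked cells, but at 4.42 and 4.62 in arterial-marked cells, where its interval included 1. The difference in these genes was thus present within capillary-marked cells. S100a8, a neutrophil gene, was at 5.80 and 34.9 in capillary-marked and 1.21 and 48.0 in arterial-marked cells, and its part in these values was not tested. Of all genes measured in capillary-marked cells, 17.9% were higher and 11.7% lower; in arterial-marked cells 17.1% and 13%, and in venous-marked cells 8.64% and 14.3%.

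**Figure D5:**
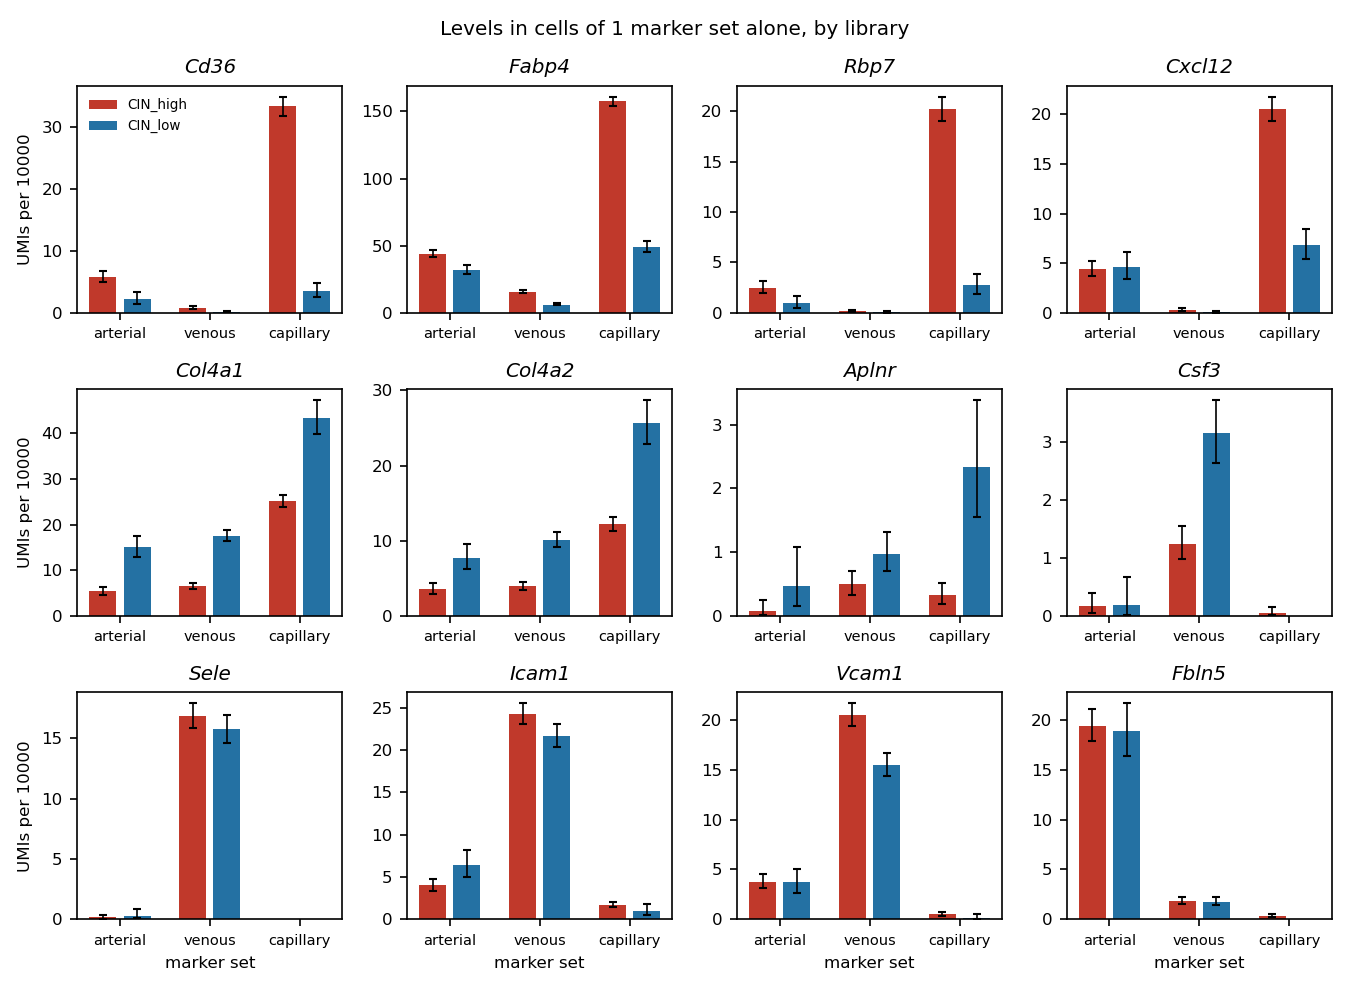
Levels (UMIs per 10000) of 12 genes in cells of 1 marker set alone, CIN_high in red and CIN_low in blue; bars start at 0 and error bars are exact 95% Poisson intervals, drawn where a UMI was found. Cd36, Fabp4, Rbp7 and Cxcl12 differ most in the capillary bars, Col4a1 and Col4a2 are lower in CIN_high in all 3 sets, Csf3 is lower in CIN_high in the venous bars, and Sele, Icam1 and Vcam1 are highest in the venous bars of both libraries.

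Type IV collagen differed in every set. Col4a1 was at 5.35 and 15.0 in arterial-marked, 6.46 and 17.5 in venous-marked and 25.2 and 43.4 in capillary-marked cells, and was 2.81-fold (2.24 to 3.52), 2.72-fold (2.40 to 3.08) and 1.72-fold (1.55 to 1.90) lower in CIN_high. Col4a2 was lower by 2.18-fold, 2.56-fold and 2.1-fold. Over all blood endothelial cells the folds were 1.53 and 1.63. Aplnr was at 0.32 and 2.34 in capillary-marked cells, 7.29-fold lower (3.90 to 14.0). Insr was at 1.66 and 4.35 in capillary-marked cells, 2.62-fold lower (1.83 to 3.72), and at 8.72 and 11.4 in venous-marked cells, within 1.5-fold.

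MHC class II genes, which present antigen, gave opposite results by set. Over all blood endothelial cells 7 of 7 were measured, with a median log2 ratio of -0.65. Of these, 0 were higher and 5 lower, beside 6.02% and 12% of all measured genes. H2-Aa was at 3.98 and 6.70, and at 1.48 and 5.71 in T and NK cells. There 6 of 6 measured class II genes were lower, beside 8.82% of all genes measured in T and NK cells. In venous-marked cells 5 of 6 class II genes were lower, beside 14.3% of all genes, with H2-Ab1 at 3.25 and 10.4. In capillary-marked cells 5 of 5 were higher, beside 17.9%, with H2-Ab1 at 4.71 and 1.92 and Cd74, the invariant chain, at 21.0 and 9.21. In the 31 CIN_low capillary-marked cells H2-Eb1 rested on 15 UMIs and H2-Ab1 on 23. In the 379 CIN_high and 131 CIN_low cells left after those with 2 or more markers of another class were removed, the median over 6 measured genes was 0.18, with 0 higher and 0 lower. MHC class I genes, 14 of 14 measured, had 0 beyond 1.5-fold over all blood endothelial cells and a median of 0.18; in capillary-marked cells 7 of 13 were higher, beside 17.9% of all genes, with a median of 0.59.

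The counts of the growth and signalling lists stand beside 6.02% higher and 12% lower of all measured genes. Several lie near those shares and are not read as results about a list. VEGF and angiopoietin genes, 14 of 19 measured, had 2 higher (Kdr and Nrp1) and 2 lower (Vash1 and Vegfa). Nrp1, a VEGF co-receptor, was at 7.17 and 3.74, 1.92-fold higher (1.73 to 2.13). BMP and TGF-beta genes, 18 of 24 measured, had 2 higher (Tgfbr2 and Tgfbr3) and 2 lower, Tgfbr1 among them; Tgfbr2, the type II receptor, was at 5.24 and 3.30. Angiocrine factors, 21 of 35 measured, had 5 higher (Cxcl12, Dkk2, Edn1, Esm1 and Igfbp4) and 4 lower (Apln, Igfbp5, Nrg1 and Pdgfa). Wnt and R-spondin genes, 8 of 20 measured, had 0 higher and 1 lower (Adgra2); Rspo3 gave 2 and 0 UMIs and Wnt2 gave 0 in both. Flow response genes, 12 of 15 measured, had 1 higher (Cavin2) and 1 lower (Kcnj2), and Klf2, the shear stress factor, was at 10.5 and 7.71.

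Interferon response genes, 19 of 24 measured, had 4 higher (Ifi35, Ifit1, Ifit2 and Rsad2) and 1 lower (Ifi44). For this and the other lists of the paragraph, the background over all measured genes was 6.02% higher and 12% lower. Rsad2, viperin, was at 0.90 and 0.30, 3.04-fold higher (2.15 to 4.41), and Ifit1 had an interval that included 1. The interferon gamma list, 20 of 20 measured, had 4 higher and 2 lower, with a median log2 ratio of 0.26. The p53 target list, 18 of 26 measured, had 2 higher (Cdkn1a and Fas) and 1 lower (Cd82), and a median of -0.0041. Cdkn1a, the cyclin-dependent kinase inhibitor p21, was at 6.73 and 2.75, 2.45-fold higher (2.18 to 2.75); it was at 10.7 and 2.43 in capillary-marked cells and at 2.58 and 2.75 in T and NK cells. Mdm2, another p53 target, was at 0.63 and 0.66. The glutathione, metallothionein and NRF2 list, 14 of 16 measured, had 0 higher and 6 lower, among them Slc7a11, the cystine transporter, at 0.38 and 1.64, beside 0.41 and 1.20 in T and NK cells. Without Scrublet calls 2 of 13 measured genes were lower, and without cells with 2 or more markers of another class 1 of 11.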

How the data were processed

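Cells were dissociated with collagenase and trypsin and run on the 10x Genomics platform, per the labels' protocols. The submitters' processing notes name Cell Ranger 2.1.1, Seurat and the build mm10; how cells and genes were filtered is not given in the sources used here. The authors deposited 1 matrix on a natural log scale, ln(1 + UMIs per 10000) as its values show, with a class and a type per cell. Divided by the smallest value of its cell, 100% of the non-zero values, back-transformed, were whole within 0.01 and were taken as UMIs. Depth ranged from 807 to 32543 UMIs per blood endothelial cell.

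Summed UMIs per 10000 gave levels. Ratios have exact conditional binomial and shares Clopper-Pearson intervals (95%), which cover counting error only. A side with 0 UMIs was set to 3. No test was run, since each class is 1 library. Named genes were the 12 largest ratios each way, with a UMI in 10% of cells and a level of 0.5 on the higher side, led by blood endothelial cells, and 6 among the rest. Other types were compared only where they had at least 50 cells in a library, and lymphatic endothelial cells were set aside. Predicted, immunoglobulin, T cell receptor, hemoglobin, mitochondrial, ribosomal and sex-linked genes were left out. The 20 largest ratios to the highest other type, by the lower library, and the 10 largest each way to lymphatic cells are named, and 20 genes were always given. Of the 12 lower genes led by these cells, 2 are not reported here. Members and lists were chosen with earlier results of these data known. Scrublet in Scanpy 1.11.5 (expected rate 6%) called 142 and 249 cells as doublets (2.29% and 3.15%), 18 and 18 of them blood endothelial; they were kept in the main values. Alternatives changed the level, filters, scaling, members, doublets, depth and vessel mix. The functions were tested on simulated data. Python 3.11.15, SciPy 1.17.1 and matplotlib 3.10.9 were used.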

Additional observations from a re-analysis of the deposited data

How the results depend on the processing

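No paired analysis was possible because each class was 1 library, and for the same reason no replicate could be left out. The counts of genes higher and lower in CIN_high blood endothelial cells (431 and 861) became 662 higher with means over cells, 784 and 1543 with a minimum of 20 UMIs, 148 and 226 with 200 UMIs, and 132 and 297 at 2-fold; the lower count was 476 in cells thinned to 3000 UMIs. The MHC class II median (-0.65) was -0.26 with means over cells, -0.072 without Scrublet calls, -0.33 after thinning, and reversed to 0.18 without cells that held 2 or more markers of another class. The chemokine median (-1.12) was -0.28, -0.56 and -0.20 without Scrublet calls, without those cells, and without genes near the scaled myeloid level, the last an alternative chosen after seeing the data. The NRF2 median (-0.27) was -0.0090 without Scrublet calls and 0.023 without the cells with other markers. The fatty acid median was 1.13 with a minimum of 200 UMIs, and the capillary median 0.55 with the vessel mix standardised. Of the recomputed list medians, 107 stayed within the median counting interval of their genes, 9 moved further and 1 reversed; the cause of each move was not tested.

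The CIN_low share was 2.38% with no lymphatic UMI allowed, and the shares without immune cells were 15.7% and 10.9%. With 1 defining gene in place of 2, the sets held, in CIN_high and CIN_low, 55.3% and 52.7% (arterial), 53.2% and 64.7% (venous), 58.8% and 59.4% (capillary) and 25.8% and 27.7% (tip), so the lower capillary share of CIN_low cells rests on the rule of 2 genes; after thinning it was 27.2%. Of the recomputed ratios of named genes, 404 stayed within their counting interval, 32 moved and 0 changed direction. The genes were chosen for large ratios in the same data, so a kept direction is no test. The alternatives of 20 UMIs, 200 UMIs and the scaled myeloid level only drop genes and leave each ratio as it was. They gave 36, 24 and 31 of the 404. Sums from 22 to 63 CIN_low cells in a set limit the comparisons within sets.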

Other observations

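Cells without any marker set were shallow, with a median of 1662 UMIs in the CIN_high and 1724 in the CIN_low library, against 4100 and 5326 in capillary-marked cells. Few blood endothelial cells held cell cycle transcripts. Of 20 G2 and M phase genes 2 were measured: Mki67, lower in CIN_high with 18 and 47 UMIs (4.18-fold, 2.38 to 7.65), and Top2a, with 41 and 22 UMIs. Of 20 S phase genes 7 were measured, with 0 beyond 1.5-fold. Immediate early genes, 19 of 20 measured, had 0 beyond 1.5-fold and a median log2 ratio of 0.20; Fos was at 25.3 and 23.9 UMIs per 10000. Heat shock genes, 14 of 14 measured, had 1 higher (Hsp90aa1) and 1 lower (Hspa1b). Glycolysis and hypoxia genes, 22 of 25 measured, had 3 higher (Ankrd37, Bnip3 and Ndrg1) and 3 lower (Eno1, Hk2 and Vegfa). Endothelial junction genes, 14 of 18 measured, had 2 higher (Cldn5 and Jam3) and 0 lower. For all lists of this paragraph the background over all measured genes was 6.02% higher and 12% lower.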
